A study of Arabidopsis thaliana with 22 samples.

Results

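The type-A response regulators of Arabidopsis thaliana are a family of 10 genes that damp the response to the hormone cytokinin. They were followed here through the first hours of light in seedlings that had grown in darkness. The members are ARR3 (AT1G59940), ARR4 (AT1G10470), ARR5 (AT3G48100), ARR6 (AT5G62920), ARR7 (AT1G19050), ARR8 (AT2G41310), ARR9 (AT3G57040), ARR15 (AT1G74890), ARR16 (AT2G40670) and ARR17 (AT3G56380), taken by locus, and all 10 had a row among the 33602 genes of the count table. Gene counts came from 22 RNA-seq libraries of etiolated Col-0 seedlings, in 11 groups of 2. The light groups were blue and red light for 1 h and blue, red and white light for 6 h, and each colour had a pair of dark groups, one taken at 0 h and the other kept in darkness until 6 h. Every group shared the same wild-type ecotype, an age of 6 days at the start, medium with sucrose and a short pulse of white light to induce germination, so the dark groups had also seen light as seeds. No group of white 1 h enters the comparisons.

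In the cytokinin pathway, membrane histidine kinases perceive the hormone, phosphotransfer proteins carry the signal to the nucleus, and type-B response regulators, which are transcription factors, are activated by phosphorylation. Type-A regulators carry the same receiver domain but lack a DNA-binding domain. Most of their genes are switched on directly by type-B factors, and their proteins compete in the relay and so act as negative feedback, which is why their transcripts are widely used as readouts of cytokinin signalling. In the seedling, cytokinin and light share outputs such as leaf and chloroplast development, and ARR4 binds the red-light receptor phytochrome B.

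Total counts were 59054903 to 138804638 in the 10 light libraries and 35000731 to 72685876 in the 12 dark libraries. Light libraries were sequenced 2 per pool and dark libraries 4 per pool, so light and pool size cannot be told apart. The labels do not say that replicates came from separate cultures, so p-values measure the spread between these samples, which may be technical. The markers of etiolated seedlings, PORA and PIL1, summed to 7.99 to 66.1 CPM (counts scaled to a common normalised library size) after 6 h of light and 282 to 1128 CPM in 6 h dark, with both markers detected in every library. The 5 root markers summed to 188 to 291 CPM in 6 h light and 174 to 229 CPM in 6 h dark. The 2 leaf markers, LHCB2.2 and RBCS1A, summed to 3861 to 8119 CPM in 6 h light and 1501 to 3860 CPM in 6 h dark. The 2 vascular markers summed to 53.7 to 66.1 CPM in 6 h light and 64.3 to 78.9 CPM in 6 h dark, and the 3 shoot meristem markers to 7.26 to 14.1 CPM in 6 h light and 5.24 to 11.7 CPM in 6 h dark. The 3 guard cell markers, FAMA, MYB60 and KAT1, summed to 11.1 to 26.0 CPM in 6 h light and 22.4 to 38.8 CPM in 6 h dark, and to 16.3 to 20.0 CPM in 1 h light and 18.05 to 38.1 CPM at 0 h. The stem-cell gene WUS, which encodes a known repressor of ARR5, ARR6, ARR7 and ARR15, had at most 4 counts in any library. The 4 heat shock markers summed to 211 to 1377 CPM in 6 h light, 381 to 1479 CPM in 1 h light and 65.8 to 146 CPM in all dark libraries, and the part of these marker differences in the results below was not tested. The highest heat shock sums were in replicate 2 of red 1 h, at 1479 CPM, and replicate 2 of white 6 h, at 1377 CPM. Replicate 2 of red 1 h also had the highest sum of the 7 seed storage markers, 774 CPM, against 15.8 CPM in replicate 1 of that group.

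The family was led in every condition by ARR4, measured per kb of exon so that genes can be set side by side. After 6 h of light the median levels were 73.6 CPM per kb for ARR4, 32.2 for ARR5, 28.8 for ARR9, 26.5 for ARR6, 24.6 for ARR8, 23.8 for ARR7, 4.44 for ARR16, 2.55 for ARR15 and 1.46 for ARR3. In 6 h dark they were 43.6 CPM per kb for ARR4, 34.2 for ARR5, 28.3 for ARR8, 22.2 for ARR9, 15.2 for ARR6, 9.05 for ARR7, 3.42 for ARR3, 0.606 for ARR16 and 0.346 for ARR15. In light the levels of ARR5, ARR9, ARR6, ARR8 and ARR7 ran into each other, each neighbour's range over 6 libraries overlapping the next, and ARR15 overlapped ARR3. In darkness ARR5 overlapped ARR8 and ARR8 overlapped ARR9, while all other neighbours were separate. ARR3 therefore stood above ARR16 and ARR15 in 6 h dark and below ARR16 in 6 h light. The 10 members together summed to 366 to 463 CPM in 6 h light (median 386) and 266 to 315 CPM in 6 h dark (median 292).

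**Figure D1:**
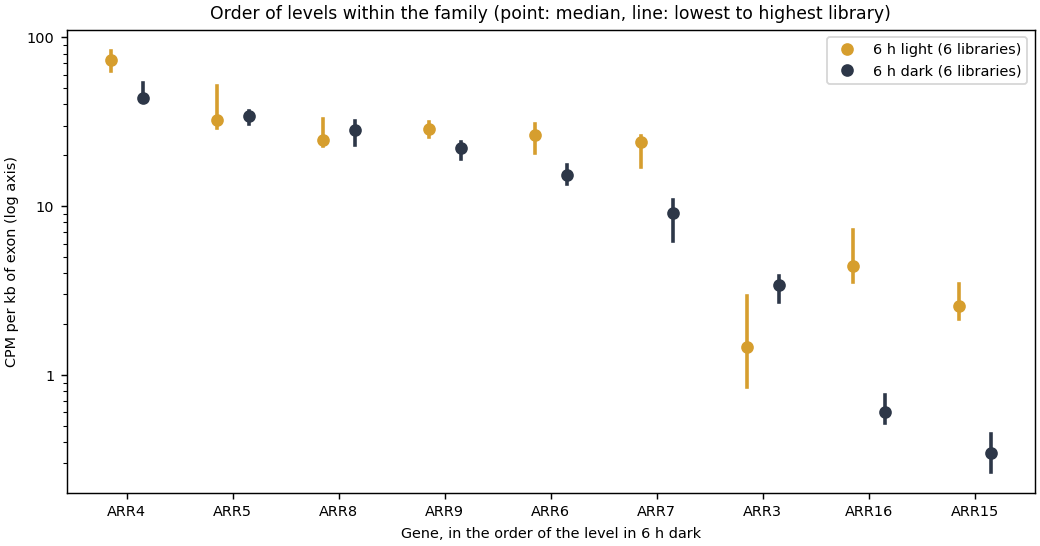
Level of each gene in CPM per kb of exon on a log axis, with the 6 libraries of 6 h light left of the 6 libraries of 6 h dark. Points are medians and lines run from the lowest to the highest library. ARR4 is at the top in both (73.6 in light and 43.6 in darkness), and ARR16 and ARR15 move most, to 4.44 and 2.55 in light, against 0.606 and 0.346 in darkness. ARR17, near 0, is not drawn.

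Light for 6 h changed 7 of the 9 members that passed the filter on low counts: ARR16, ARR15, ARR7, ARR6, ARR4 and ARR9 rose, ARR3 fell, and ARR5 and ARR8 did not pass. That is 6 higher, where 32.5% of all 23011 genes tested were called higher, and 1 lower, where 25.9% were called lower, in the edgeR quasi-likelihood test of the mean of the 3 colours at an adjusted p under 0.05. The median log2 change of the 9 members was 0.69, against 0.02 for all genes. In 6 members all 6 light libraries lay above all 6 dark libraries, as they did in 18.8% of all genes tested. In bulk samples such as these a lower level can mean fewer cells of a type or less RNA per cell, and these cannot be told apart.

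ARR16, ARR15 and ARR7 had the largest log2 changes in the mean of the 3 colours. Within single colours the fall of ARR3 was larger in size than the rise of ARR7 in blue, at 2.58-fold against 2.41-fold, and in white, at 2.54-fold against 2.19-fold. In embryos and shoot meristems ARR7 and ARR15 are known as a closely related pair that limit cytokinin output, and ARR16 is known from the stomatal lineage of leaves. Together these 3 genes held 7.06% to 10.2% of the family's counts in 6 h light (median 9.42%) and 2.75% to 4.04% in 6 h dark (median 3.56%).

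Because these genes rose together at 6 h, the 250 bases upstream of their annotated starts are shown, with ARR5, a standard reporter of cytokinin that did not pass the test here, for comparison. The windows, read by locus from RefSeq's TAIR10.1 assembly, lie at chr2:16969423-16969672 on the plus strand for ARR16, and on the minus strand at chr1:28133026-28133275 for ARR15, chr1:6579315-6579564 for ARR7 and chr3:17760951-17761200 for ARR5. Each is printed 5′ to 3′ on the gene's strand. Capitals mark AGATT, the core bound by type-B regulators, which appears as AATCT where it lies on the other strand, and GATAAG, the I-box of light-regulated genes, which appears as CTTATC on the other strand.
ARR16: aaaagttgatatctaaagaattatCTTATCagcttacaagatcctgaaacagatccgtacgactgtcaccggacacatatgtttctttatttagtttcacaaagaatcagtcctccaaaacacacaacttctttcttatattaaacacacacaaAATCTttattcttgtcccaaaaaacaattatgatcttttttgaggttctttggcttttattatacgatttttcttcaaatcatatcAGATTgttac
ARR15: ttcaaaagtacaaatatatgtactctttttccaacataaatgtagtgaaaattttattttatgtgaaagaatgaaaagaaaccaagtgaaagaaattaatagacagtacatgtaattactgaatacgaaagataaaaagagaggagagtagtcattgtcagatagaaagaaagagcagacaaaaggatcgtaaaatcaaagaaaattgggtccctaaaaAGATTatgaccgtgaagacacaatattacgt
ARR7: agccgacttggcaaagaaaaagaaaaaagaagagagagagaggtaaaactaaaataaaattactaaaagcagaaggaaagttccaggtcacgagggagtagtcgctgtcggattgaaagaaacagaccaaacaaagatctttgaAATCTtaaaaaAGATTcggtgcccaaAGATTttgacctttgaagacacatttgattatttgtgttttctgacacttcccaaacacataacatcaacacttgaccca
ARR5: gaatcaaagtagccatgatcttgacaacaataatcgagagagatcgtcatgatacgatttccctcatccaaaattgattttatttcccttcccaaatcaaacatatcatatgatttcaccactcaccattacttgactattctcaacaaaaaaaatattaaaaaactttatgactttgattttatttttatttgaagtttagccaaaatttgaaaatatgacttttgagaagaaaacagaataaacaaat
The AGATT core occurred 3 times upstream of ARR7, 2 times upstream of ARR16, 1 time upstream of ARR15 and 0 times upstream of ARR5, counting both strands. In the same window ARR6 had 3 matches, ARR9 had 2, ARR3 and ARR8 had 1 each, and ARR4 and ARR17 had 0. Thus 7 of 10 members held it, and so did 63.7% of 27443 promoters of the same length, which had a median of 1 match. The share of promoters with several matches was not computed. The I-box had 1 match each upstream of ARR16 and ARR8, in 2 of 10 members against 12.3% of all promoters. The G-box CACGTG, bound by light-responsive bZIP and bHLH factors, was in 0 of 10 members and 6.49% of all promoters. No match overlapped another, and a match describes letters only and not a bound site.

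**Figure D2:**
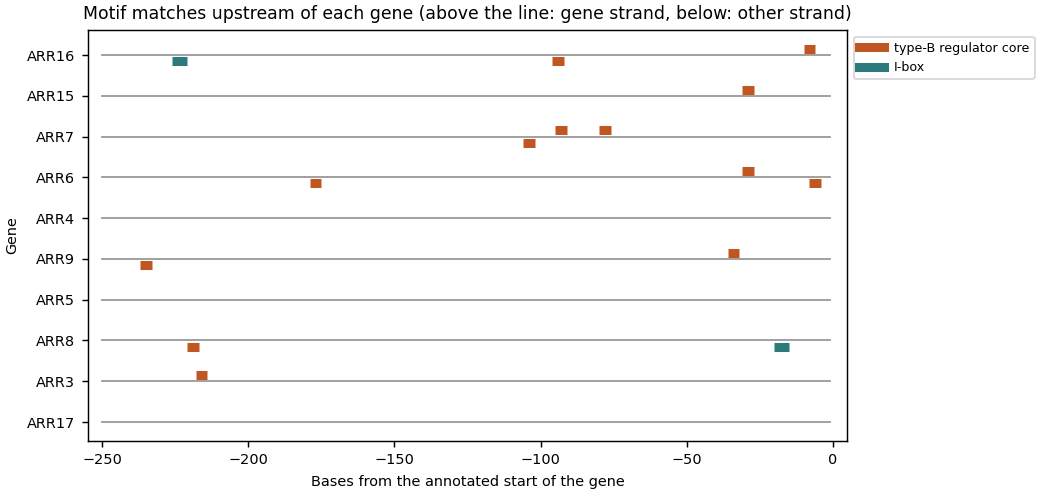
Positions of AGATT cores and I-boxes in the 250 bases upstream of each of the 10 genes, on an axis of bases from the annotated start. Marks above a line are on the gene's strand and marks below on the other strand. ARR7 and ARR6 hold 3 cores each, ARR4, ARR5 and ARR17 hold 0, and no G-box was found.

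ARR16 had 11.3 and 14.97 CPM in the 2 libraries of blue 6 h, against 1.25 and 1.26 CPM in blue 6 h dark. It had 7.39 and 8.50 CPM in red 6 h, against 1.28 and 1.07 CPM in red 6 h dark. It had 7.52 and 9.94 CPM in white 6 h, against 1.22 and 1.58 CPM in white 6 h dark. All 6 light libraries lay above all 6 dark libraries. Over the 3 colours ARR16 rose 7.58-fold, a log2 change of 2.92 (SE 0.20, adjusted p = 2.11e-08 by edgeR), and the rise of ARR15 was of like size. The sum of the guard cell markers in the same libraries was 26.0 and 22.8 CPM in blue 6 h against 38.8 and 26.2 CPM in blue 6 h dark, 24.7 and 25.5 CPM in red 6 h against 22.4 and 23.6 CPM in red 6 h dark, and 11.1 and 12.3 CPM in white 6 h against 29.3 and 31.5 CPM in white 6 h dark. In blue and white both light libraries had lower marker sums than both dark ones, and in red both had higher sums. A link between these sums and the level of ARR16 was not tested. Over all 22 libraries FAMA had 1.39 to 3.75 CPM, MYB60 3.45 to 9.48 CPM and KAT1 5.95 to 27.9 CPM. The sum therefore need not follow FAMA, and the markers were not compared singly.

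ARR15 was the scarcest of the 9 tested members in darkness, with 9 to 28 counts in each of the 12 dark libraries. It had 3.74 and 2.34 CPM in blue 6 h, against 0.289 and 0.485 CPM in blue 6 h dark. In red it had 3.17 and 3.68 CPM at 6 h, against 0.366 and 0.357 CPM in red 6 h dark, and in white 2.31 and 2.31 CPM, against 0.432 and 0.380 CPM in white 6 h dark. The groups did not overlap, and the mean log2 change was 2.89 (SE 0.25, adjusted p = 2.34e-07 by edgeR), a 7.43-fold rise. In red 6 h ARR15 rose 9.42-fold and ARR16 6.75-fold, and in blue 6 h ARR15 rose 7.63-fold and ARR16 10.4-fold. The 95% intervals of the 2 genes overlapped in both colours, and the difference between the genes was not tested.

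ARR7 stood above ARR16 and ARR15 in darkness and rose by a smaller factor. Its levels were 23.7 and 21.2 CPM in blue 6 h against 8.28 and 10.3 CPM in blue 6 h dark, and 22.2 and 24.5 CPM in red 6 h against 7.80 and 5.87 CPM in red 6 h dark. In white 6 h it had 16.1 and 22.7 CPM, against 8.95 and 8.79 CPM in white 6 h dark. Again all light libraries were above all dark ones, and the mean log2 change was 1.39 (SE 0.12, adjusted p = 2.53e-07 by edgeR), a 2.62-fold rise.

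**Figure D3:**
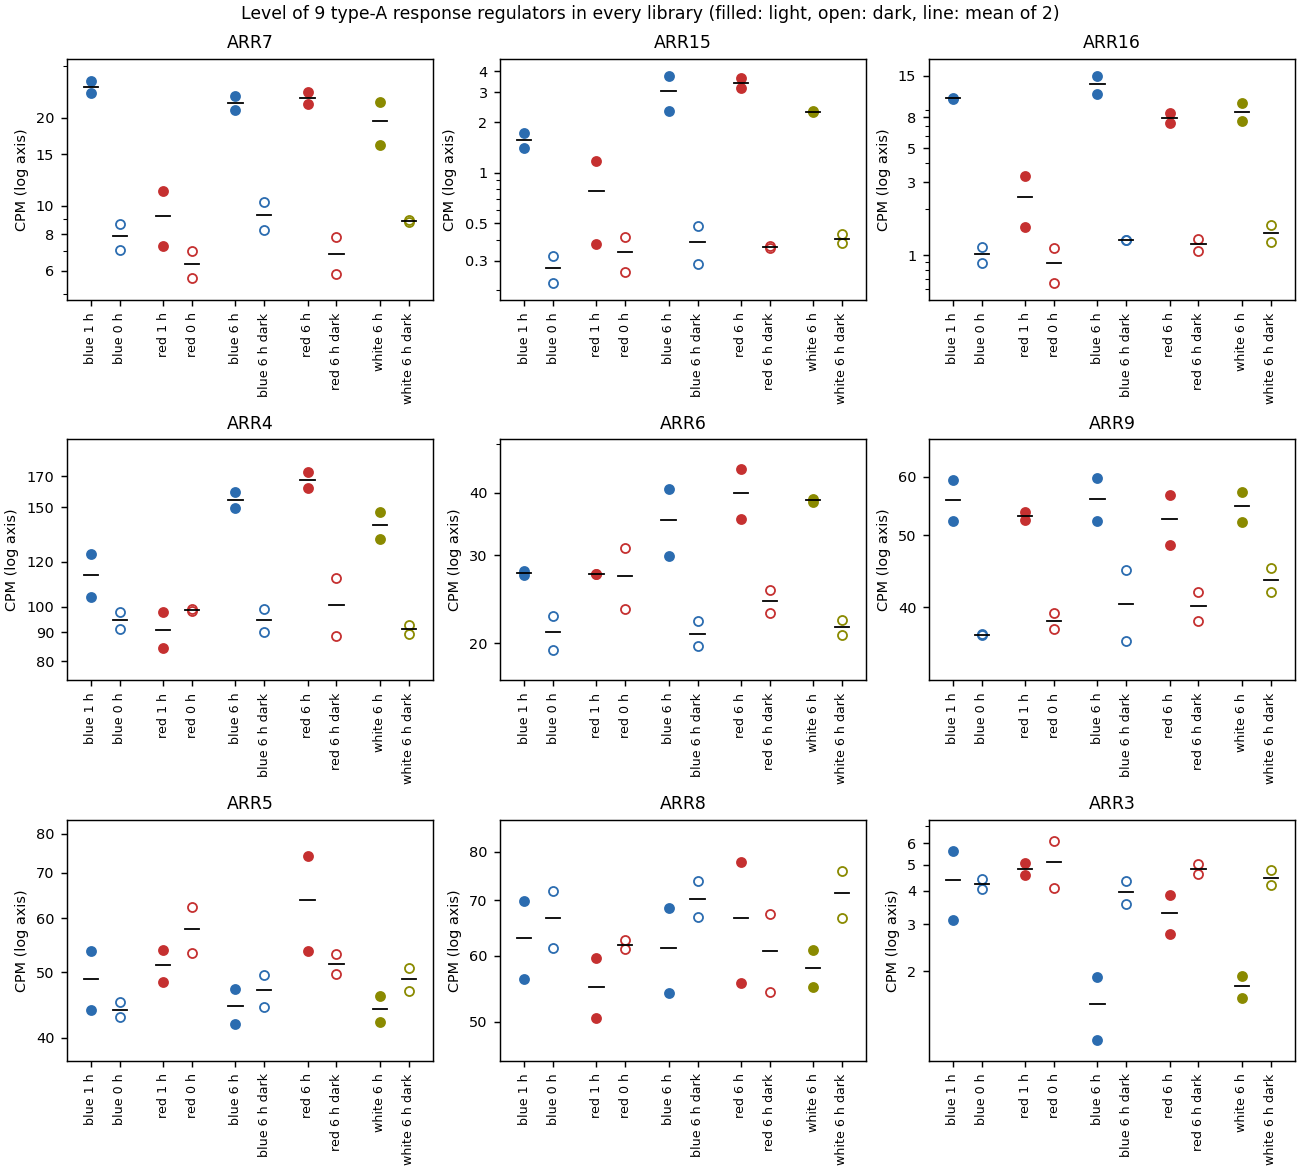
Level of 9 members in every library, in CPM on a log axis that differs between panels. Each light group stands left of its own dark group, filled points are light libraries, open points dark libraries and lines the mean of 2. ARR16 reaches 7.39 to 14.97 CPM in the 6 libraries of 6 h light, against 1.07 to 1.58 CPM in 6 h dark, while the libraries of ARR5 and ARR8 overlap.

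ARR4, ARR6 and ARR9 were abundant in darkness and rose by smaller factors. ARR4 is the member known to stabilise the active form of phytochrome B, ARR6 is the close relative of ARR5, and ARR9 that of ARR8. ARR4 had 149 and 160 CPM in blue 6 h against 90.2 and 98.9 CPM in blue 6 h dark. It had 173 and 162 CPM in red 6 h against 112 and 88.8 CPM in red 6 h dark, and 147 and 132 CPM in white 6 h against 89.6 and 92.8 CPM in white 6 h dark. No dark library reached the lowest light library, and the rise was 1.61-fold, a log2 change of 0.69 (SE 0.07, adjusted p = 7.70e-07 by edgeR). Its share of the family's counts was 36.0% to 42.2% in 6 h light (median 38.7%) and 30.3% to 35.6% in 6 h dark (median 32.8%).

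ARR6 had 40.8 and 29.9 CPM in blue 6 h against 19.7 and 22.1 CPM in blue 6 h dark, 44.6 and 35.4 CPM in red 6 h against 25.6 and 23.005 CPM in red 6 h dark, and 38.4 and 38.9 CPM in white 6 h against 22.3 and 20.8 CPM in white 6 h dark. The groups did not overlap and the mean log2 change was 0.77 (SE 0.09, adjusted p = 5.44e-06 by edgeR). In red alone its adjusted p was 0.0554 without replicate 2 of red 6 h dark and 0.0576 without replicate 1 of red 6 h, and in blue it was 0.0566 with only the libraries of that comparison. In ARR6, 348 bases of exon, 23.9% of its exon length, lie within the span of the gene AT5G62910 on the other strand in TAIR10.1. The strand setting of the counting is not given in the sources used here. AT5G62910 itself had 17.1 to 19.6 CPM in 6 h light and 17.57 to 22.5 CPM in 6 h dark, with a log2 change of -0.07 (adjusted p = 0.336 by edgeR).

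ARR9 rose least, for a log2 change of 0.40 (SE 0.07, adjusted p = 1.13e-04 by edgeR), or 1.32-fold. It had 59.8 and 52.3 CPM in blue 6 h against 36.0 and 45.0 CPM in blue 6 h dark, 56.7 and 48.6 CPM in red 6 h against 41.9 and 38.3 CPM in red 6 h dark, and 52.2 and 57.3 CPM in white 6 h against 42.0 and 45.2 CPM in white 6 h dark. The lowest light library, at 48.6 CPM, was only just above the highest dark library, at 45.2 CPM. Within single colours the ARR9 call was less firm than the mean. With library totals in place of normalisation factors its adjusted p was 0.0546 in blue, 0.0675 in red and 0.199 in white by edgeR. With only the libraries of the comparison it was 0.118 in blue and 0.0594 in red, and with counts thinned to the smallest total it was 0.0732 in white. Without replicate 1 of blue 6 h dark its blue log2 change was 0.29 (adjusted p = 0.0938), against 0.47 with it, and without replicate 1 of red 6 h its red log2 change was 0.25 (adjusted p = 0.199), against 0.39 with it. Its blue call was also lost without replicate 1 of blue 6 h (adjusted p = 0.0566), its red call without either library of red 6 h dark (0.0579 and 0.176) and its white call without any 1 of the 4 white 6 h and white 6 h dark libraries (0.0560 to 0.205), or without replicate 1 of blue 0 h or either library of red 1 h (0.05004 to 0.0508).

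ARR3, the closest relative of ARR4, went the other way. It had 1.11 and 1.90 CPM in blue 6 h against 4.33 and 3.57 CPM in blue 6 h dark, and 1.59 and 1.93 CPM in white 6 h against 4.76 and 4.198 CPM in white 6 h dark. In red 6 h it had 3.85 and 2.75 CPM, against 5.03 and 4.62 CPM in red 6 h dark. In each colour both light libraries were below both dark libraries of the same series. Across series 1 red 6 h library, at 3.85 CPM, lay inside the range of all 6 dark libraries. ARR3 fell 2.58-fold in blue (log2 change -1.37, SE 0.30, adjusted p = 0.00241) and 2.54-fold in white (log2 change -1.34, SE 0.30, adjusted p = 0.00233), both by edgeR. In red its log2 change of -0.55 (SE 0.29) did not pass, with an adjusted p of 0.183 by edgeR. The difference between the blue and red responses, -0.82 on the log2 scale, had a 95% interval of -1.70 to 0.07 and an adjusted p of 0.841 by edgeR, so blue and red were not shown to differ.

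ARR5 and ARR8 did not pass in any light comparison. ARR5 had 47.2 and 41.9 CPM in blue 6 h against 44.4 and 49.5 CPM in blue 6 h dark, 74.1 and 53.7 CPM in red 6 h against 53.2 and 49.7 CPM in red 6 h dark, and 42.1 and 46.1 CPM in white 6 h against 50.7 and 46.9 CPM in white 6 h dark. Its mean log2 change was 0.03, with a 95% interval of -0.16 to 0.22 (adjusted p = 0.788 by edgeR). This interval leaves out the mean changes fitted for ARR4 and ARR6. The mean joins unlike colours, with ARR5 at -0.08 in blue, 0.31 in red (95% interval -0.01 to 0.63) and -0.14 in white. Both red 6 h libraries lay above both of their dark libraries, and both white 6 h libraries lay below theirs. ARR8 had 68.5 and 54.1 CPM in blue 6 h against 73.7 and 66.8 CPM in blue 6 h dark, 77.8 and 55.6 CPM in red 6 h against 67.4 and 54.2 CPM in red 6 h dark, and 61.0 and 55.1 CPM in white 6 h against 76.0 and 66.7 CPM in white 6 h dark. The blue and red libraries overlapped with their dark libraries and the white ones did not. ARR8 had a mean log2 change of -0.12 with a 95% interval of -0.34 to 0.10 (adjusted p = 0.322 by edgeR). Within white light ARR8 gave -0.30 (adjusted p = 0.190), with the replicate number as a block -0.30 (adjusted p = 0.0211) and with only the libraries of the comparison -0.32 (adjusted p = 0.0478). ARR8 and ARR9 overlap annotated long non-coding RNAs on the other strand, over 12.6% and 10.03% of their exon length, and those RNAs had no rows in the count table.

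ARR17, the closest relative of ARR16, was barely detected. It had 0 to 2 counts in each library and 12 counts in all 22, of which 3 were in the 10 light libraries and 9 in the 12 dark libraries. It did not pass the filter on low counts and was not tested, and no fold change is given. Across the coding sequences ARR16 and ARR17 were the most alike pair, at 84.7% identity over the aligned bases, with a longest shared run of 23 bases. The other closest pairs were ARR3 and ARR4 (81.4%, longest run 41), ARR8 and ARR9 (81.3%, 41), ARR5 and ARR6 (80.1%, 20) and ARR7 and ARR15 (77.7%, 19). How reads with several positions were counted is not given in the sources used here. Within these pairs ARR3 fell and ARR4 rose. In the mean of the 3 colours at 6 h, the 95% intervals of ARR5 and ARR6, and of ARR8 and ARR9, did not overlap.

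Some members were already higher after the first hour of blue light. No dark group of 1 h enters the comparisons, so light cannot be told apart from 1 h of elapsed time or handling. Compared with blue 0 h, 4 of 9 members were higher after 1 h, where 5.35% of all genes were called higher, and 0 were lower, where 2.78% were. ARR16 had 10.6 and 10.7 CPM in blue 1 h against 0.891 and 1.13 CPM in blue 0 h, a 10.5-fold rise for a log2 change of 3.39 (SE 0.36, adjusted p = 2.33e-05 by edgeR). ARR7 had 26.7 and 24.4 CPM in blue 1 h against 7.08 and 8.70 CPM in blue 0 h, a 3.24-fold rise (log2 change 1.69, SE 0.22, adjusted p = 1.17e-04 by edgeR). ARR15 had 1.41 and 1.73 CPM in blue 1 h against 0.223 and 0.319 CPM in blue 0 h, for a log2 change of 2.53 (SE 0.47, adjusted p = 0.00266 by edgeR), and its adjusted p was 0.0559 without replicate 1 of blue 0 h. ARR9 had 59.4 and 52.4 CPM in blue 1 h against 36.7 and 36.8 CPM in blue 0 h (log2 change 0.60, SE 0.11, adjusted p = 0.00297 by edgeR), and with only the libraries of the comparison its adjusted p was 0.0882. In these 4 genes, and also in ARR4 and ARR6, both libraries of blue 1 h were above both of blue 0 h, as they were in 22.9% of all genes tested. ARR4, with 124 and 104 CPM in blue 1 h against 91.1 and 97.9 CPM in blue 0 h, and ARR6, with 27.9 and 27.3 CPM against 19.4 and 22.7 CPM, did not pass (adjusted p = 0.223 and 0.186 by edgeR). ARR3, ARR5 and ARR8 had log2 changes of 0.03, 0.15 and -0.08 in blue 1 h and of -0.09, -0.18 and -0.17 in red 1 h, none of which passed. In red 1 h ARR4 had 97.7 and 84.5 CPM against 98.2 and 99.0 CPM in red 0 h, both lower (log2 change -0.11, adjusted p = 0.757 by edgeR). ARR8 had 59.7 and 50.5 CPM in red 1 h against 62.7 and 61.1 CPM in red 0 h, also both lower. In ARR7, ARR9 and ARR16 both libraries of red 1 h were higher than both of red 0 h. The share of all genes so separated was not computed for red 1 h, and in blue 1 h 18.5% were all lower. ARR6 overlapped, with 27.6 and 27.5 CPM in red 1 h against 23.4 and 31.0 CPM in red 0 h (log2 change 0.01, adjusted p = 0.987 by edgeR).

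Red light for 1 h gave a smaller set. Of the 9 members, 2 were called higher, where 3.72% of all genes were, and 0 lower, where 0.891% were. ARR9 had 53.8 and 52.4 CPM in red 1 h against 39.3 and 37.3 CPM in red 0 h (log2 change 0.47, SE 0.11, adjusted p = 0.0244 by edgeR), and this call was lost without any 1 of the 4 libraries, at adjusted p-values of 0.0541 to 0.202, with library totals (0.0607) and with only the libraries of the comparison (0.0955). ARR16 had 1.52 and 3.30 CPM in red 1 h against 1.11 and 0.656 CPM in red 0 h (log2 change 1.48, SE 0.35, adjusted p = 0.0233 by edgeR). Its replicates in red 1 h were far apart. Without replicate 2 of red 1 h, the library with the highest heat shock and seed storage sums, its log2 change was 0.81 (adjusted p = 0.508), without replicate 2 of red 0 h it was 1.12 (adjusted p = 0.329), and with only the libraries of the comparison it was 1.47 (adjusted p = 0.277). ARR7 had 7.28 and 11.3 CPM in red 1 h against 7.03 and 5.68 CPM in red 0 h, and ARR15 had 0.377 and 1.17 CPM against 0.416 and 0.257 CPM. Neither passed, with adjusted p-values of 0.219 for ARR7 and 0.180 for ARR15 by edgeR, and without replicate 1 of red 1 h ARR15 did (log2 change 1.83, adjusted p = 0.0109).

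**Figure D4:**
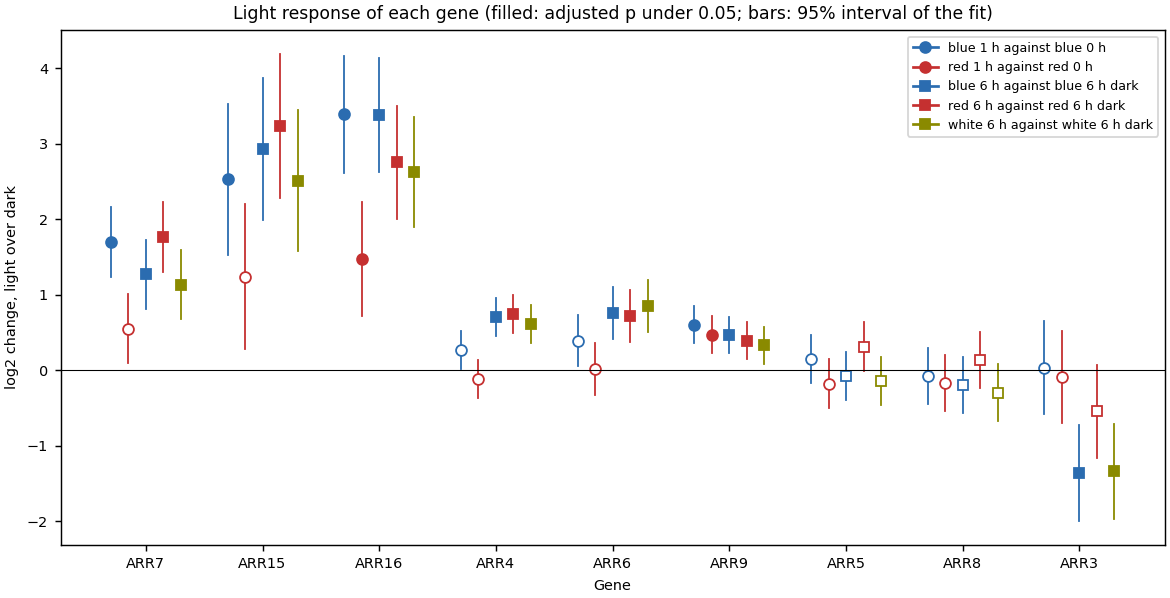
Log2 change of light over dark for 9 members in 5 comparisons, with 95% intervals of the fit. Circles are 1 h against 0 h, squares 6 h against 6 h dark, and filled marks have an adjusted p under 0.05. ARR16 is at 3.39 in blue and 1.48 in red after 1 h, and ARR3 is the member below 0 at 6 h with filled marks.

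The blue and red responses at 1 h were then set against each other. The blue response of ARR16 exceeded its red response by 1.92 on the log2 scale (SE 0.50, unadjusted p = 0.0017, adjusted p = 0.783 by edgeR), with a 95% interval of 0.85 to 2.98. For ARR7 the difference was 1.15 (SE 0.30, adjusted p = 0.783) with an interval of 0.50 to 1.79, and for ARR15 it was 1.29 (SE 0.66, adjusted p = 0.798) with an interval of -0.12 to 2.70. ARR4 gave 0.38 (SE 0.17, adjusted p = 0.798). None of the 9 members passed by edgeR or by DESeq2, and neither did any other gene by edgeR, where 0% were called. At an unadjusted p under 0.05 there were 3 members and 1415 genes by edgeR. A difference between the colours at 1 h was thus not shown at this replication.

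At 6 h the 3 colours were set side by side in the same way. Blue changed 7 members, where 37.4% of all genes were called in either direction, red changed 6, where 27.7% were, and white changed 7, where 41.6% were. In each colour 6 members rose, and ARR3 was the 1 that fell, in blue and in white. None of the 3 differences between colours at 6 h called a member by edgeR or by DESeq2, where 0.0956% of all genes were called for blue and red, 0.0608% for blue and white and 2.72% for red and white. At an unadjusted p under 0.05 there were 0, 0 and 1 members and 1460, 1880 and 3922 genes by edgeR. For ARR16 the blue response exceeded the red response by 0.63 (95% interval -0.39 to 1.66) and the white response by 0.76 (95% interval -0.25 to 1.77). ARR7 gave -0.50 for blue minus red (95% interval -1.14 to 0.14) and 0.64 for red minus white (95% interval -0.001 to 1.28).

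The course between 1 h and 6 h was tested as the difference of the responses. The 1 h response was taken against 0 h and the 6 h response against 6 h dark, so the references differ in time. Over blue and red together, 2 members gained from 1 h to 6 h, where 15.7% of all genes did, and 1 lost, where 11.1% did. ARR4 gained 0.65 on the log2 scale (SE 0.12, adjusted p = 0.00101 by edgeR), ARR6 gained 0.53 (SE 0.16, adjusted p = 0.0231), and ARR3 lost ground, with a difference of -0.93 (SE 0.29, adjusted p = 0.0279). In red alone ARR4 gained 0.85 (SE 0.17, adjusted p = 0.00589) and ARR7 gained 1.22 (SE 0.30, adjusted p = 0.0198), 2 members where 5.82% of genes were called higher, and 0 were lower, where 4.48% were. In blue alone 0 members were called higher, where 9.15% of genes were, and ARR3 was the 1 called lower (-1.40, SE 0.41, adjusted p = 0.0342), where 6.29% were. Blue light gave ARR16 a difference of -0.01 between 6 h and 1 h, with a 95% interval of -0.99 to 0.97, and ARR9 over both colours -0.11, with an interval of -0.35 to 0.13. The ARR4 calls held without each library in turn, and the other calls did not. ARR7 in red was lost without replicate 1 of red 0 h, replicate 2 of red 6 h dark, replicate 1 of red 1 h or replicate 2 of red 6 h, at adjusted p-values of 0.0779 to 0.107. ARR3 in blue was lost without either library of blue 0 h or of blue 6 h dark, or without replicate 1 of blue 1 h or of blue 6 h, at 0.0605 to 0.130, and with the replicate number as a block it had -1.33 (adjusted p = 0.0505). Over both colours ARR3 had adjusted p-values of 0.0503 to 0.0656 without replicate 2 of blue 0 h, red 1 h or red 6 h, or without replicate 1 of blue 1 h, blue 6 h, blue 6 h dark, red 0 h or red 6 h dark. With only the libraries of the comparison the adjusted p was 0.0746 for ARR7 in red, 0.132 for ARR3 in blue and 0.0535 for ARR3 over both colours. ARR6 over both colours had 0.0607 with library totals, 0.0512 with thinned counts, and 0.0517 to 0.0672 without replicate 1 of blue 6 h, blue 6 h dark or red 6 h, replicate 2 of blue 0 h, red 0 h or red 6 h dark, or either library of red 1 h.

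In darkness no member was called. Compared with 0 h, 0 of 9 passed in 6 h dark, and 0% of all genes were, by edgeR, while 769 genes and 0 members had an unadjusted p under 0.05, and DESeq2 also called 0 members. These groups shared the same pool size. ARR16 had 1.07 to 1.58 CPM in 6 h dark (median 1.26) and 0.656 to 1.33 CPM at 0 h (median 1.00). ARR7 had 5.87 to 10.3 CPM in 6 h dark (median 8.54) and 5.68 to 8.70 CPM at 0 h (median 7.46), and ARR4 had 88.8 to 112 CPM in 6 h dark (median 91.5) and 91.1 to 99.0 CPM at 0 h (median 96.3). The ranges of the 6 libraries overlapped in each of these genes. ARR16 gave the largest log2 change, 0.38 (95% interval -0.07 to 0.84), and ARR4 the smallest, -0.01 (95% interval -0.15 to 0.14).

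Across the 22 libraries the log2 levels of ARR7, ARR15 and ARR16 went together, with a Pearson r of 0.96 for ARR7 and ARR16, 0.94 for ARR15 and ARR16 and 0.93 for ARR7 and ARR15. The libraries share the light contrast, and in the 12 dark libraries alone these values were 0.57, 0.38 and 0.55. ARR5 and ARR6 showed the opposite order, at 0.33 over all libraries and 0.91 over the 12 dark ones. ARR3 ran against ARR15 at -0.70 over all libraries. These are descriptions, with light, depth and pool size common to the points.

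Among 13101 genes outside the family with a mean of at least 10 CPM, the patterns most like each responding member were found by the same r over 22 libraries. ARR16 was closest to BGLU9, a beta-glucosidase gene (r = 0.97), and to EXPA10, a gene of the expansins that loosen cell walls (r = 0.96). ARR7 was closest to CAD9 (0.93) and to EXPA10 (0.93), and ARR15 to AT5G37360 (0.94) and to CDSP32, which encodes a chloroplast thioredoxin-like protein (0.94). ARR4 was closest to AT4G28440 (0.95) and UBC14 (0.94), and ARR6 to APT3 (0.96), an adenine phosphoribosyltransferase gene, and VHA-E3 (0.95). ARR9 was closest to MYB16, a regulator of cuticle formation (0.93), and AT3G61750 (0.92). ARR3 was closest to RGL1, a DELLA repressor of gibberellin responses (0.93), and UMAMIT4 (0.92). These genes were picked for their likeness over the same 22 libraries, which hold the light contrast. Tests of their own light changes are not independent of that choice and are not given here.

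The rest of the cytokinin pathway was read from a list of 63 genes, of which 51 passed the filter. At 6 h, 17 rose and 13 fell, where 32.5% and 25.9% of all genes did, with a median log2 change of 0.02, the same as the 0.02 of all genes. At 1 h, over blue and red, 6 rose and 7 fell, where 7.75% and 3.73% of all genes did. Of the synthesis, phosphotransfer and type-B genes, 0 were called at 1 h over blue and red. In blue 1 h alone the phosphotransfer gene AHP1 was higher, by 1.11 (adjusted p = 0.0251 by edgeR), and the type-B gene ARR1 was lower, with -0.55 (adjusted p = 0.0252). In red 1 h alone they had 0.18 and -0.08 (adjusted p = 0.863 and 0.890). The members at 1 h over both colours counted 4 higher and 0 lower.

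Among genes that make the hormone, 3 of 8 tested synthesis genes rose at 6 h and 1 fell. For this and the lists that follow, 32.5% of all genes rose at 6 h and 25.9% fell. At 1 h over blue and red the shares were 7.75% and 3.73%, and no list was tested against these shares. The tRNA-type isopentenyltransferase genes IPT9 and IPT2 rose by log2 changes of 0.54 and 0.36, and CYP735A1, a hydroxylase that forms trans-zeatin, rose by 0.67. Its relative CYP735A2, named after its value was seen, was the 1 that fell, with -0.93. Of 7 LOG genes, which release the active base, 2 rose and 3 fell. LOG1 had 9.04 to 20.2 CPM in 6 h light (median 12.0) and 4.04 to 6.04 CPM in 6 h dark (median 4.97), for a log2 change of 1.33 (SE 0.09, adjusted p = 2.79e-08 by edgeR). LOG5 had 4.55 to 10.5 CPM in 6 h light (median 5.07) and 16.1 to 28.0 CPM in 6 h dark (median 18.9), for a log2 change of -1.81 (SE 0.16, adjusted p = 3.10e-07). LOG8 fell, with -0.68. At 1 h LOG5 had risen, by 0.67 (adjusted p = 0.0359), and LOG1 by 0.42 (adjusted p = 0.0268).

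Of the 7 cytokinin oxidase genes, which break the hormone down, 2 rose and 3 fell at 6 h. The shares of all genes were 32.5% and 25.9%. CKX5 had 9.18 to 27.2 CPM in 6 h light (median 14.9) and 33.5 to 38.7 CPM in 6 h dark (median 35.1), with no overlap and a log2 change of -1.23 (SE 0.08, adjusted p = 1.29e-08 by edgeR). CKX5 was already lower at 1 h, by -1.26 on the log2 scale (SE 0.10, adjusted p = 5.95e-07 by edgeR). CKX6 fell, with -0.57 at 6 h. CKX7 rose at both times, by 0.77 at 6 h and by 0.68 at 1 h (adjusted p = 0.0223 at 1 h), the 1 oxidase gene called higher at 1 h, where 2 were called lower. CKX4, also named after its values were seen, changed by -0.74 at 1 h and by 0.52 at 6 h, both past the threshold (adjusted p = 0.0300 and 0.0144).

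None of the 3 receptor genes passed at 6 h, and at 1 h AHK4 and AHK2 fell, with -0.46 (adjusted p = 0.00226) and -0.25 (adjusted p = 0.0432). AHK4 had 46.6 to 76.2 CPM in 1 h light and 74.0 to 89.9 CPM at 0 h. Of 6 phosphotransfer genes 3 rose and 1 fell at 6 h, where 32.5% and 25.9% of all genes did. AHP1 rose by 1.53 (SE 0.17, adjusted p = 1.95e-06) and AHP2 by 0.45. AHP4 rose by 1.95 (SE 0.25, adjusted p = 1.10e-05), with 0.287 to 1.44 CPM in 6 h light and 0.137 to 0.289 CPM in 6 h dark. Of 6 tested type-B regulators, 3 rose and 2 fell. ARR1 had 78.9 to 95.5 CPM in 6 h light and 146 to 175 CPM in 6 h dark, for a log2 change of -0.83 (SE 0.08, adjusted p = 7.86e-07 by edgeR). ARR14 rose by 1.54 (SE 0.16, adjusted p = 1.33e-06) and ARR11 by 0.75 (SE 0.10, adjusted p = 1.05e-05).

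Among the cytokinin response factors, AP2-type transcription factors, 2 of 6 rose at 6 h, where 32.5% of all genes did. The 2 were CRF4, by 0.61, and CRF1, by 0.79, and at 1 h CRF4 and CRF5 rose by 0.89 and 0.42. Of the 3 tested KMD genes, whose F-box proteins target type-B regulators for breakdown, KMD1 and KMD2 fell at both times, with -0.73 and -0.60 at 6 h and -0.75 and -0.86 at 1 h, and 0 rose. Of 5 transport and glucosylation genes, 2 rose and 1 fell at 6 h. ABCG14, the exporter that loads root cytokinin for the shoot, fell, with -0.50 at 6 h and -0.36 at 1 h, while the glucosyltransferase genes UGT85A1 and UGT76C1 rose by 0.47 and 0.16 at 6 h, and UGT76C1 also by 0.30 at 1 h (adjusted p = 0.00847). The 2 type-C regulators, ARR22 and ARR24, had at most 1 count in a library and were not tested.

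**Figure D5:**
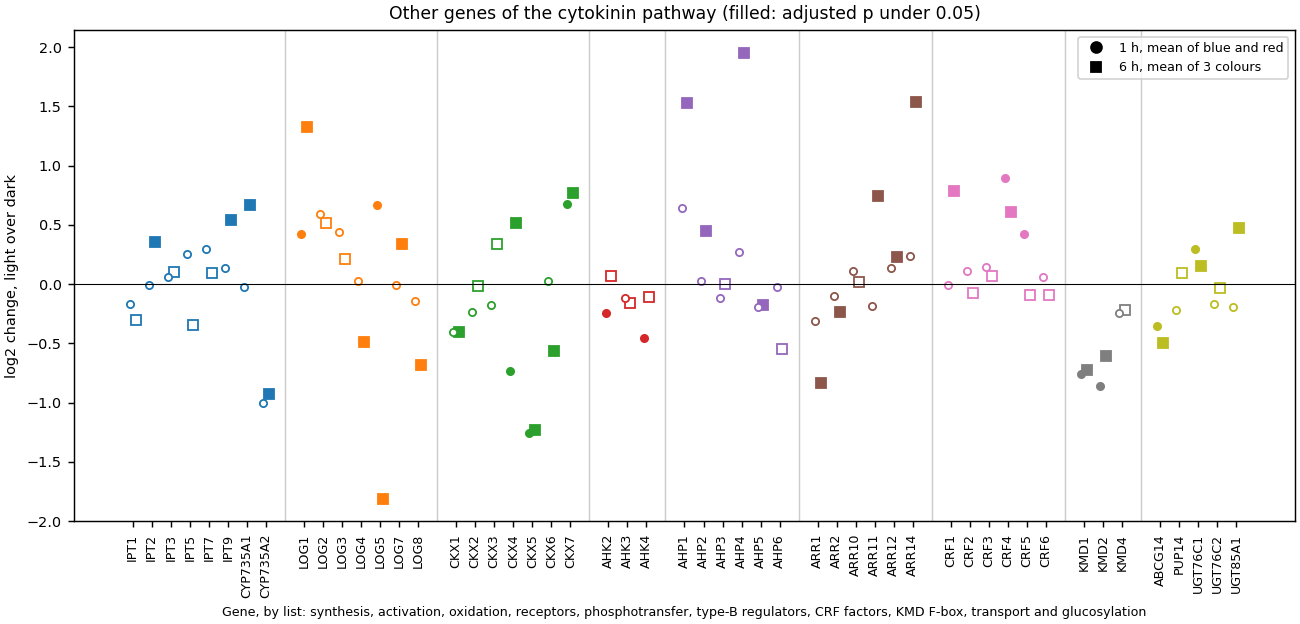
Log2 change of light over dark for the 51 tested genes of the cytokinin pathway, grouped by list. Circles are the mean of blue and red at 1 h against 0 h, and squares the mean of 3 colours at 6 h against 6 h dark. Filled marks have an adjusted p under 0.05. Changes lie on both sides of 0 in most lists, from -1.81 for LOG5 to 1.95 for AHP4.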

How the data were processed

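RNA-seq gene counts of 22 libraries in 11 groups were used. The authors deposited 1 table whose values are unnormalised whole-number read counts, with a column named for each library per the file headers. The submitters' processing notes name TAIR 10 as the build. Not given in the sources used here are the aligner, the counter, its strand setting and how it treated reads that map to several places. Locus tags were matched to the TAIR10.1 RefSeq table (32835 matched, 767 not), and sequences and coordinates were read by locus from that assembly's own annotation with Biopython 1.88.

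Genes were filtered with filterByExpr (minimum count 10), which kept 23011 of 33602. Tests were edgeR 4.0.16 quasi-likelihood F tests in R 4.3.3, fitted to all 22 libraries with a mean for each group (11 residual degrees of freedom) and TMM scaling, adjusted by Benjamini-Hochberg over all genes kept and called at an adjusted p under 0.05. SEs are the log2 change over the root of F. The tests were first checked on simulated counts for genes recovered and false calls, and the SEs and intervals were not checked in this way. Light groups were compared with a dark group of the same series, 1 h with 0 h and 6 h with 6 h dark. Differences between colours and times were contrasts of these comparisons. CPM are TMM-normalised.

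The members, the pathway and marker lists and the tests were chosen with earlier results of these data known. Named were all members, up to 3 called genes per pathway list at 6 h and 2 at 1 h by adjusted p, and 2 genes per responding member by r of log2 CPM (prior count 2). Alternatives were RLE factors, library totals, no filter, a filter of 5 CPM in 2 libraries, DESeq2 1.42.0, no organelle genes, a replicate block, the comparison's own libraries and each library left out. Thinning to the smallest total was chosen after seeing the data.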

Additional observations from a re-analysis of the deposited data

Results flagged for a closer look

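At 1 h the response was taken against 0 h and at 6 h against 6 h dark. The responses of 4 members differed between 1 h and 6 h of light by edgeR's test of the difference itself, adjusted over all 23011 genes. These calls come from the contrasts in blue, in red and over both colours. Over both colours 15.7% of all genes were called higher and 11.1% lower, in red 5.82% and 4.48%, and in blue 9.15% and 6.29%. The calls of ARR6, ARR7 and ARR3 were each lost without some single libraries. ARR4 had the firmest calls, which held without each library in turn. Its response over blue and red was larger at 6 h than at 1 h by 0.65 on the log2 scale (adjusted p = 0.00101), and in red alone by 0.85 (adjusted p = 0.00589). In red its libraries had 173 and 162 CPM at 6 h and 97.7 and 84.5 CPM at 1 h. ARR6 was larger at 6 h by 0.53 over both colours (adjusted p = 0.0231). ARR7 was larger at 6 h in red by 1.22 (adjusted p = 0.0198), while in blue its difference was -0.42 (adjusted p = 0.376). ARR3 was lower at 6 h by a difference of -0.93 over both colours (adjusted p = 0.0279) and of -1.40 in blue (adjusted p = 0.0342), where the replicate number as a block gave -1.33 (adjusted p = 0.0505). In blue ARR3 had 1.11 and 1.90 CPM at 6 h and 5.62 and 3.11 CPM at 1 h.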

How the results depend on the processing

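The calls of all 7 members at 6 h over the 3 colours held under the 31 alternatives run, 30 for ARR15, which the filter of 5 CPM removed, and no change of sign was found for a called value. Counts of called members that moved by over 1.5 times were these. For red 1 h the main count of 2 was 1 with library totals alone, 0 with only its own libraries and 0 to 2 with each library left out, with 0 without replicate 2 of red 1 h or replicate 2 of red 0 h. For 6 h minus 1 h in blue the count of 1 was 0 with only its libraries and 0 to 1 with each library left out. For the same in red the count of 2 was 1 with only its libraries, 4 by DESeq2 and 1 to 4 with each library left out. Over both colours the count of 3 was 1 to 4 with each library left out. Without replicate 1 of blue 1 h, ARR3's difference in blue was -0.91 (adjusted p = 0.130). Library totals alone moved the median of all genes at 6 h by -0.12 and left 41.0% of all calls on the higher side, against 55.6%, and the members still counted 6 higher and 1 lower.

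Numbers within a series are shared between groups, and libraries with the same number deviated together with correlations of 0.0478 to 0.574, 14 of 15 over 0.1 (median 0.287). Between groups of different series 30 of 40 were over 0.1 (median 0.189, highest 0.453). Within the blue series the values ran from 0.339 to 0.574, within red from 0.0478 to 0.458 and within white from 0.124 to 0.220. With 2 numbers per series these values do not settle whether libraries were paired, and those of blue were the highest. With the replicate block the count for 6 h minus 1 h in blue was 0, where ARR3 had -1.33 (adjusted p = 0.0505), and for white 6 h it was 8, with ARR8 added. All other counts stayed at their values. ARR15 had at most 28 counts in a dark library, and the smallest change that could be detected was not measured.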

Other observations

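The library labelled red 6 h replicate 1 had the highest summed level of the 10 members, 463 CPM, against 395 CPM in replicate 2 of the same group. ARR5 and ARR8 were also highest there among all 22 libraries, at 74.1 and 77.8 CPM, against 53.7 and 55.6 CPM in replicate 2. Without replicate 2 of red 6 h, ARR5 passed in red 6 h, with a log2 change of 0.49 (adjusted p = 0.0420 by edgeR). In 1 h light the summed level was 379 and 324 CPM in blue and 306 and 284 CPM in red.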
